A study of Mus musculus with 18 samples.

Results

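The transcripts described here encode the nuclear-encoded subunits of the mitochondrial respiratory chain and of ATP synthase, 82 of the 26073 genes measured. They were chosen by gene symbol, with earlier results of these data known. Complex I was taken as Nduf symbols with the letter a, b, c, s or v and a number, and complex II as Sdha to Sdhd. Symbols starting with Uqcr stood for complex III, with Cox4 to Cox8 for complex IV and with Atp5 for complex V. A member also had to have a sample signal well above background on all 3 arrays of at least 1 group. Of 98 RefSeq symbols of these names, 83 had a probe and 82 were measured: 36 of complex I, 4 of complex II, 8 of complex III, 17 of complex IV and 17 of complex V. All 82 were well above background on all 18 arrays, so the signal requirement kept no member through 1 group alone. Cox7b2, a testis isoform, had a probe and was not measured, and 14 pseudogenes and Ndufb1 had no probe. Ndufa4, which was first assigned to complex I and is now counted with complex IV, is kept here under complex I, where its symbol puts it.

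Complexes I and II pass electrons from NADH and succinate to ubiquinone, complex III passes them to cytochrome c, and complex IV passes them to oxygen. Complexes I, III and IV pump protons across the inner mitochondrial membrane, and complex V, ATP synthase, uses that gradient to make ATP. Mature colonocytes of the healthy mucosa are known for a high rate of mitochondrial respiration, fed in large part by bacterial butyrate.

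The study set intestinal tissue of male C57BL/6 mice on a control diet against that of mice whose diet held the herb St. John's wort (SJW), with or without azoxymethane (AOM), a carcinogen used to raise tumours of the gut. Each of 6 groups had 3 arrays. Saline-treated mice gave the groups control saline and SJW saline, named by diet, and AOM-treated mice gave non-tumour tissue (control AOM, SJW AOM) and tumours (control tumour, SJW tumour). Each array set the RNA of 1 sample, labelled with Cy5, against a commercial RNA pool of Swiss Webster mouse embryos and adult organs, labelled with Cy3. Every level below is a log2 ratio of sample over pool, and every difference is a log2 difference between group means ± its standard error, with 3 arrays in each group. A member was called higher or lower where the Benjamini-Hochberg adjusted p of limma, taken over all 26073 genes, was under 0.05. The series calls the 3 arrays of a group biological replicates; the age of the mice and the number of mice or tumours behind each array are not given in the sources used here. In whole tissue, fewer cells of a type and less RNA per cell cannot be told apart.

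Tumour arrays had median Cy5 intensities of 336.5 to 786.5 and the 12 others of 133 to 375, and log2 ratios correlated at 0.903 to 0.958 between arrays of a group. The non-tumour arrays lay on slides 1 to 3, with 1 array of each non-tumour group on each, and the tumour arrays on slides 4 and 5, scanned on another day. Tumour tissue therefore cannot be told apart from scan day and slide in any tumour comparison. On 6 arrays the reference channel was brighter than on the others, 4 of them saline arrays. Small intestine is the labelled tissue, although liver is named in the extraction protocol. Colon genes were high in non-tumour tissue (mean of 6 genes 3.52 to 5.07 per array, with Car1, a colonocyte carbonic anhydrase, at 6.34 to 8.38). Small intestine genes were at -0.31 to 1.72 and liver genes at -2.20 to -1.08 there. SJW AOM replicate 3 stood apart in pancreatic acinar genes, with a mean of 3.88 over 5 genes against -1.38 to 1.79 on the other non-tumour arrays.

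In non-tumour tissue the members lay near the level of the reference pool, and in tumours they lay below it. The median over the 82 members was -0.04 ± 0.045 (SD, n = 3 arrays) in control saline, 0.086 ± 0.10 in SJW saline, 0.067 ± 0.11 in control AOM and -0.04 ± 0.035 in SJW AOM tissue. In tumours it was -0.69 ± 0.15 on the control diet and -0.74 ± 0.11 on the SJW diet. No tumour array overlapped any non-tumour array, since the highest tumour median was -0.56 and the lowest non-tumour median -0.08. The median over all genes stayed between 0.00037 and 0.11 on the 18 arrays. Normalization within each array holds that median near 0, so its steadiness is no separate result. Group means of 35 to 46 members were below the pool in the non-tumour groups, and of 81 members in each tumour group. The exception was Atp5g2, which encodes a copy of the c subunit of the ATP synthase rotor, at 0.17 in control and 0.059 in SJW tumours. These medians are a description of a list chosen by name and carry no test.

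**Figure D1:**
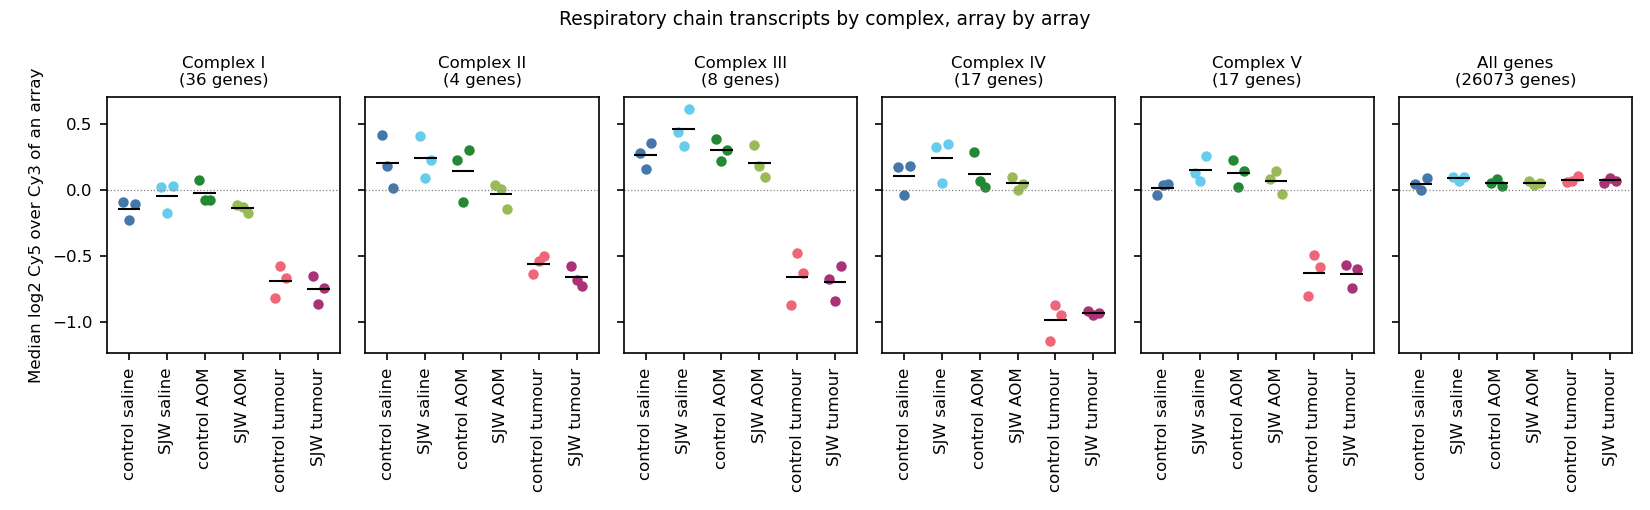
Median log2 ratio of sample over pool of the members of each complex and of all genes, for each of the 18 arrays; points are arrays, lines are means of 3 arrays and SJW is the St. John's wort diet. In all 5 complexes the 6 tumour arrays sit below the 12 non-tumour arrays. The medians of all genes lie between 0.00037 and 0.11, where normalization within each array holds them near 0.

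Tumours were first compared with AOM-treated non-tumour tissue of the same diet. On the control diet 68 of 82 members were lower in tumours and 0 were higher, where 19.3% of all genes were lower and 12.7% higher. In SJW tumours 66 members were lower and 0 higher, where 15.4% of all genes were lower and 9.18% higher. The median difference of the members was -0.77 on the control and -0.71 on the SJW diet, and that of all genes -0.05 and -0.06. Arrays of the groups did not overlap, with tumours lower, for 70 members on the control diet (24.6% of all genes) and 73 on the SJW diet (28.5%). These comparisons of the diets share no array, but they share 1 fit and the same slides. Called in both were 64 members, of the 68 on the control diet and the 66 on the SJW diet. Atp5g2, Cox7a2l, Ndufa11 and Sdha were called on the control diet alone and Cox8c and Sdhb on the SJW diet alone. None of these was called when the tumour changes of both diets were tested against each other.

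Within-array scaling bore on these counts. When a plain shift of every array to a median of 0 replaced the loess curve, 25 members were lower on the control and 7 on the SJW diet, with medians of -0.57 and -0.46 against 0.11 and 0.096 for all genes. In that setting 1854 of all 26073 genes were lower and 3777 higher on the control diet, and 1282 and 2703 on the SJW diet. Of the 52 members tested with the values of the authors' deposited table of log2 values, 39 and 38 were lower. Without the 6 arrays of brighter reference 65 and 66 were lower, and without SJW AOM replicate 3 the SJW count was 66. The members are bright: 75 of 82 were in the brightest of 10 equal classes of genes by mean signal. Of the 2533 other genes there, 27.5% were lower and 20.4% higher in control diet tumours, with a median of -0.07, where 65 of the 75 members were lower. On the SJW diet 24.2% were lower and 13.5% higher, with a median of -0.09, where 62 of the 75 members were lower.

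**Figure D2:**
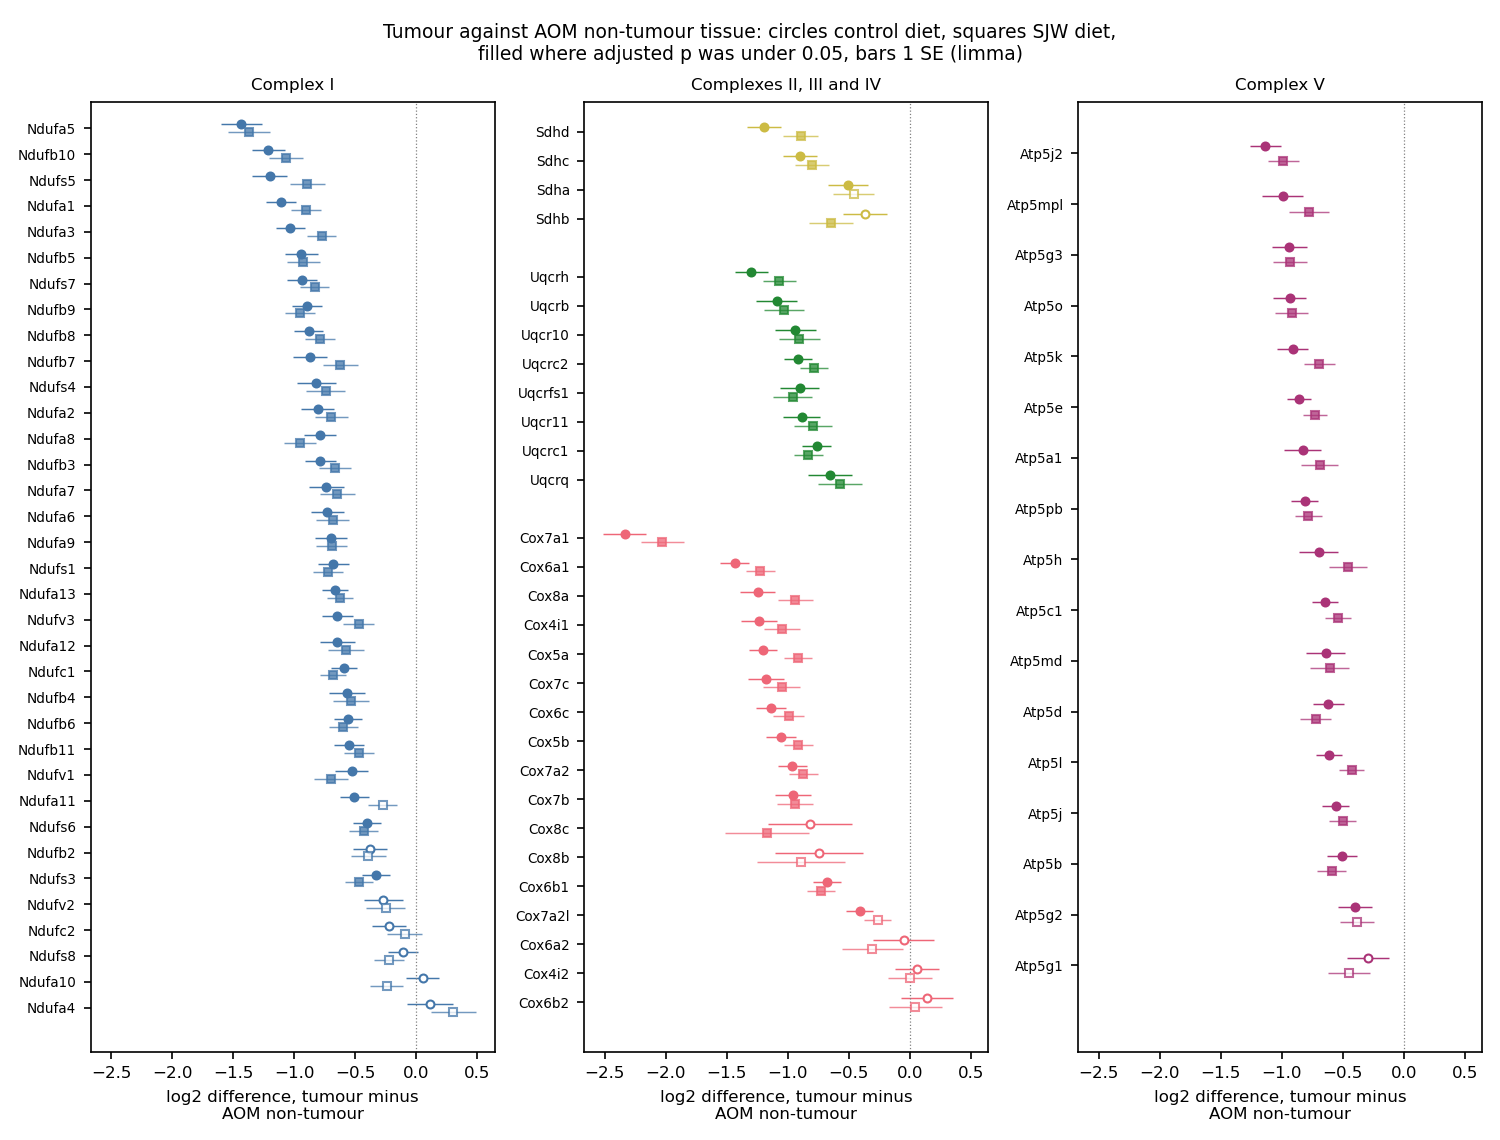
Log2 difference of 81 of the 82 members in tumours against AOM-treated non-tumour tissue, by complex; circles are the control diet and squares the SJW diet, filled where limma's adjusted p was under 0.05, and bars are 1 standard error. Nearly all points lie left of 0, with Cox7a1 farthest at -2.34 and -2.03 and Ndufa4 at 0.11 and 0.31.

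The largest called decrease of each complex on the control diet was that of Ndufa5 (complex I), Sdhd (II), Uqcrh (III), Cox7a1 (IV) and Atp5j2 (V). Since these members moved together, the promoter windows of these 5 are shown, to let their sequences be compared. The windows run from 250 bases before to 50 bases after the annotated transcript start, on the strand of the gene, and come from RefSeq on build GRCm38.p6. They lie at chr6:24527641-24527940 (Ndufa5, minus strand, 1 of its 2 windows), chr9:50603800-50604099 (Sdhd, minus strand), chr4:116075021-116075320 (Uqcrh, minus strand), chr7:30183921-30184220 (Cox7a1, plus strand) and chr5:145191492-145191791 (Atp5j2, minus strand). Capitals mark matches, on either strand, to 4 motif spellings: GCGC, any base, then TGCGC for NRF1 (nuclear respiratory factor 1), CCGGAAG for GABP and other ETS factors, AAGATGGCG for YY1, and AAGGTCA for the oestrogen-related receptors (ERR).
Ndufa5: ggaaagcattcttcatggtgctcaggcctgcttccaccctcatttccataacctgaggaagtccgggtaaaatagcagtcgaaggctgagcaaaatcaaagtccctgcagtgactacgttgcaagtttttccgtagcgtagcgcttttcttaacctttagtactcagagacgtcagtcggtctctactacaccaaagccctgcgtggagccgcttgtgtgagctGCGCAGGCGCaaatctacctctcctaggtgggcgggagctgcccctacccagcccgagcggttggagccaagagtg
Sdhd: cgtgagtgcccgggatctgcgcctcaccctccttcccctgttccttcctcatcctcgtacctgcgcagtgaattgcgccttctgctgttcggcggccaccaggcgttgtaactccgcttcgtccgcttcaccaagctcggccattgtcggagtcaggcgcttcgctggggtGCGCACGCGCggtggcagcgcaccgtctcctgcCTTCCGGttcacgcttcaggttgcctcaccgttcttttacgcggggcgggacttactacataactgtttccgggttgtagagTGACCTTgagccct
Uqcrh: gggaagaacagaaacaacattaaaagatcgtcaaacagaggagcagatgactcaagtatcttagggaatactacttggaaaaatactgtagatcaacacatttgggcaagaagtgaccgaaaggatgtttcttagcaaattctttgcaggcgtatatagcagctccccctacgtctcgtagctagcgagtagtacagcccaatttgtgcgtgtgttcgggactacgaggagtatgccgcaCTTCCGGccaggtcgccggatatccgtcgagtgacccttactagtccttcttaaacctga
Cox7a1: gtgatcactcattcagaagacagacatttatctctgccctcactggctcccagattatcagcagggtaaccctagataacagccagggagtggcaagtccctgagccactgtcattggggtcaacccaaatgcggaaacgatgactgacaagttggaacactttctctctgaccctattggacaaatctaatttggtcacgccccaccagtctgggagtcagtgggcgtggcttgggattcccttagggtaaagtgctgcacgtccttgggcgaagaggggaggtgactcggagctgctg
Atp5j2: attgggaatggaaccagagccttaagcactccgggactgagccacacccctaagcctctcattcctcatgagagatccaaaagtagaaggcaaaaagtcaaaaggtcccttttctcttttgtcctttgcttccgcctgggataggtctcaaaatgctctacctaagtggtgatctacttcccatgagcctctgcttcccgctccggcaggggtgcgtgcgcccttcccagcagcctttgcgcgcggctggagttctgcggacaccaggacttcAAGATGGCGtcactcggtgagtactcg
The Ndufa5 window held the NRF1 spelling at -26 relative to the start, and its other window held it at -190 relative to another start. That of Sdhd held NRF1 at -79, the ETS spelling at -46 and ERR at 37. The ETS spelling lay at -10 in Uqcrh and YY1 at 24 in Atp5j2, and the Cox7a1 window held none of the 4 spellings. A match is a description of letters, and a window without one says only that these letters are not in it.

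Windows were found by symbol for 67 of the 82 members, and 15 had none. NRF1 was spelled in 25.4% of the 67, against 8.84% of 13355 measured genes with a window and 5.19% of all 27025 genes. The ETS spelling was in 25.4%, 15.5% and 9.93%, YY1 in 10.4%, 2.67% and 1.64%, and ERR in 11.9%, 4.43% and 5.38%. At least 1 of the 4 was present in 36 members and none in 31. NRF1 was in windows of 7 members of complex I, 2 of complex II, 1 of complex III, 1 of complex IV and 6 of complex V. In all, 12 spellings were searched and their shares known before these 4 were picked for display; GGGCGG, the SP1 box, was less frequent in members (40.3%) than in measured genes (58.1%), and CTTTGAT, the TCF and LEF site of Wnt signalling, was in 1.49% against 3.59%. The 12 also held TATAAA, the TATA box (10.4% of members, 12.5% of measured genes), CCAAT (43.3% and 42.1%) and 4 shorter or longer forms of the displayed spellings, which overlap them. Of these, TGCGCA for NRF1 was in 26.9% of members and 13.0% of measured genes, ACCGGAAGT for ETS in 1.49% and 1.91%, ATGGCGG for YY1 in 14.9% and 7.25%, and TCAAGGTCA for ERR in 2.99% and 0.337%. The longer ETS form was thus not more frequent in members, unlike the displayed one. Median GC content was 57.5% in members, 58.7% in measured genes and 52.7% in all.

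Complex I, the largest of the chain, was lower in 29 of its 36 members on the control diet and 28 on the SJW diet, with median differences of -0.67 and -0.66. Ndufa5, an accessory subunit of the matrix arm, stood at 0.28, -0.05 and -0.085 in control AOM replicates 1 to 3 and at -1.62, -1.14 and -1.40 in the control tumours. In SJW AOM tissue it was at -0.02, -0.02 and 0.028 and in SJW tumours at -1.20, -1.69 and -1.23. The groups did not overlap on either diet, and every tumour array was more than 1 log2 unit below the AOM-treated non-tumour arrays of its diet. Ndufa5 fell by 1.43 ± 0.17 on the control diet (2.70-fold, limma adjusted p = 2.32e-05) and by 1.37 ± 0.17 on the SJW diet (adjusted p = 4.56e-05). Ndufb10 and Ndufs5, accessory subunits of the membrane arm, fell by 1.21 ± 0.14 and 1.20 ± 0.14 on the control diet, and Ndufa1, which is needed for complex I assembly, by 1.11 ± 0.12. Among the catalytic subunits, Ndufs7, which carries the last iron-sulphur cluster before ubiquinone, fell by 0.94 ± 0.12. Ndufv1, which binds the flavin that takes electrons from NADH, fell by 0.53 ± 0.14, and Ndufs1, the iron-sulphur subunit of the same module, fell by 0.68 ± 0.13. Other subunits of the electron path did not pass on either diet: Ndufs8, an iron-sulphur subunit, was at -0.11 ± 0.12 and -0.22 ± 0.12, and Ndufv2 at -0.27 ± 0.16 and -0.25 ± 0.16. Ndufa10, Ndufb2, Ndufc2 and Ndufa4 also passed on neither diet.

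Complex II, succinate dehydrogenase, is the member of the chain that also works in the tricarboxylic acid cycle. Its membrane anchors fell on both diets. Sdhd was at 1.21, 0.77 and 1.20 in control AOM tissue and at -0.25, -0.11 and -0.05 in control tumours, and it was at 0.85, 0.80 and 0.73 in SJW AOM tissue and -0.006, 0 and -0.30 in SJW tumours. The tumour arrays lay below every non-tumour array, and Sdhd fell by 1.20 ± 0.14 (control, adjusted p = 1.99e-05) and 0.90 ± 0.14 (SJW, adjusted p = 0.00032). Sdhc was at 0.39, 0.071 and 0.33 in control AOM tissue, at -0.73, -0.56 and -0.64 in control tumours, at 0.19, -0.059 and 0.11 in SJW AOM tissue and at -0.67, -0.68 and -0.81 in SJW tumours. Its groups did not overlap, and Sdhc fell by 0.90 ± 0.14 and 0.80 ± 0.14.

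The catalytic subunits of complex II showed smaller differences by the probes used. For Sdha that was the brightest probe, and its other probe was at -0.73 on the control and -0.80 on the SJW diet. Sdha, the flavoprotein, was at 0.066, -0.25 and 0.28 in control AOM tissue and at -0.55, -0.53 and -0.35 in control tumours. Its groups did not overlap, with a difference of -0.51 ± 0.17 (limma adjusted p = 0.03) on the control diet and -0.46 ± 0.17 (adjusted p = 0.0561) on the SJW diet, where it passed without SJW AOM replicate 3 (adjusted p = 0.0343). The control diet call of Sdha was lost without control AOM replicate 1 or 3 or without control tumour replicate 1 or 2, at adjusted p of 0.0791, 0.127, 0.0773 and 0.0766. It was also lost with the scanner ratio (-0.23, adjusted p = 0.393), with median centring (-0.31, adjusted p = 0.472) and with Cy5 alone (-0.54, adjusted p = 0.0539). On the SJW diet Sdha also passed in limma with the mean of its probes (-0.63, adjusted p = 0.00588) and with Cy5 alone (-0.56, adjusted p = 0.0451). Sdhb, the iron-sulphur subunit, was at -0.73, -0.87 and -0.37 in control AOM tissue and at -0.99, -0.77 and -1.32 in control tumours, so the groups overlapped (-0.37 ± 0.18, adjusted p = 0.129). In SJW AOM tissue it was at -0.63, -0.56 and -0.77 and in SJW tumours at -1.64, -1.14 and -1.12, without overlap, and it fell by 0.65 ± 0.18 (adjusted p = 0.0157). That call was lost without SJW AOM replicate 2 (adjusted p = 0.0561) or SJW tumour replicate 1 (adjusted p = 0.082), and with median centring (-0.41, adjusted p = 0.357).

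All 8 members of complex III fell on both diets, with medians of -0.91 and -0.87. Uqcrh, the acidic hinge protein at the cytochrome c binding site, was at 1.17, 0.82 and 0.67 in control AOM tissue and at -0.53, -0.29 and -0.42 in control tumours. It was at 0.93, 0.70 and 0.82 in SJW AOM tissue and at -0.28, -0.21 and -0.28 in SJW tumours. Each tumour array was below each non-tumour array, and Uqcrh fell by 1.30 ± 0.14 (2.46-fold, adjusted p = 7.43e-06) and by 1.07 ± 0.14 (adjusted p = 5.54e-05). Uqcrfs1, the Rieske iron-sulphur protein that takes electrons from ubiquinol, fell by 0.90 ± 0.16 and 0.96 ± 0.16. The core proteins Uqcrc1 and Uqcrc2 fell by 0.77 ± 0.12 and 0.92 ± 0.11 on the control diet, and the small subunits Uqcrb, Uqcr10, Uqcr11 and Uqcrq by 0.66 to 1.09.

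Complex IV, cytochrome c oxidase, held the largest decrease of the chain. It was lower in 12 of 17 members on each diet, with medians of -0.96 and -0.92. Its subunit isoforms are given below, the common forms before the tissue-specific ones. Of the forms that most tissues express, Cox6a1 fell by 1.44 ± 0.12 on the control and 1.23 ± 0.12 on the SJW diet, Cox8a by 1.25 ± 0.14 and 0.94 ± 0.14, and Cox4i1 by 1.23 ± 0.15 and 1.05 ± 0.15. Cox7b fell by 0.96 ± 0.15 and 0.94 ± 0.15, Cox7a2 by 0.96 ± 0.12 and 0.87 ± 0.12, and Cox6b1 by 0.68 ± 0.11 and 0.73 ± 0.11. Cox5a and Cox5b, the single-form subunits of the matrix side, fell by 1.20 ± 0.11 and 1.06 ± 0.12 on the control diet.

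The array values of these common isoforms did not overlap between tumours and AOM tissue. Cox6a1 was at 0.63, 0.39 and 0.39 in control AOM tissue and at -1.15, -0.82 and -0.93 in control tumours, and at 0.45, 0.36 and 0.30 in SJW AOM tissue and -0.74, -0.93 and -0.90 in SJW tumours. Cox4i1 was at 0.34, 0.066 and 0.023 in control AOM tissue and -1.36, -0.87 and -1.04 in control tumours, and at 0.042, 0.002 and 0.049 in SJW AOM tissue and -1.01, -0.996 and -1.05 in SJW tumours. Both were above the pool on all 6 AOM non-tumour arrays and below it on all 6 tumour arrays. Cox8a went from 0.62, 0.26 and 0.52 to -0.97, -0.86 and -0.52 and Cox7b from 0.81, 0.82 and 0.92 to -0.40, 0.11 and -0.034 on the control diet. Cox7a2 was at -0.13 and Cox6b1 at 0.36 on average in control AOM tissue, and at -1.09 and -0.32 in control tumours.

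The tissue-specific partners of these isoforms did not move alike, and Cox7a1, described further below, fell most of all members. Cox4i2, the lung-type form, was at -0.62, -1.13 and -0.87 in control AOM tissue and at -0.93, -0.96 and -0.57 in control tumours, a difference of 0.06 ± 0.18, and its SJW difference was under 0.01 in size. Cox6a2, the heart and muscle form, was at -2.05, -2.68 and -2.40 in control AOM tissue and at -2.30, -2.44 and -2.55 in control tumours, with differences of -0.05 ± 0.25 and -0.31 ± 0.25. Cox6b2, the testis form, was between -3.71 and -4.19 in control AOM tissue and between -3.70 and -4.15 in control tumours, with differences of 0.14 ± 0.22 and 0.05 ± 0.22. None of these passed on either diet, and arrays of tumour and AOM tissue overlapped for each. The signs of Cox4i2, Cox6a2 and Cox6b2 turned under other scalings or with single arrays left out, so they have no settled direction. Cox8b, the muscle form, was at -1.66, -2.24 and -2.08 in control AOM tissue and -2.84, -3.28 and -2.10 in control tumours. The groups overlapped, and its differences were -0.75 ± 0.36 and -0.89 ± 0.36 without a call; it passed without control tumour replicate 3 (adjusted p = 0.0463) and, on the SJW diet, without SJW tumour replicate 3 (adjusted p = 0.0136). Cox8c, the testis form, was between -4.17 and -5.41 in control AOM tissue and between -5.47 and -5.84 in control tumours, far below a pool that holds testis RNA, with a difference of -0.82 ± 0.34 (adjusted p = 0.0817) that passed without control AOM replicate 3 (adjusted p = 0.0285). On the SJW diet it fell by 1.17 ± 0.34 (adjusted p = 0.0215), and it did not pass without SJW AOM replicate 3 (adjusted p = 0.111) or SJW tumour replicate 1 or 2 (adjusted p = 0.0591 and 0.0546), nor with the scanner ratio (adjusted p = 0.065).

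**Figure D3:**
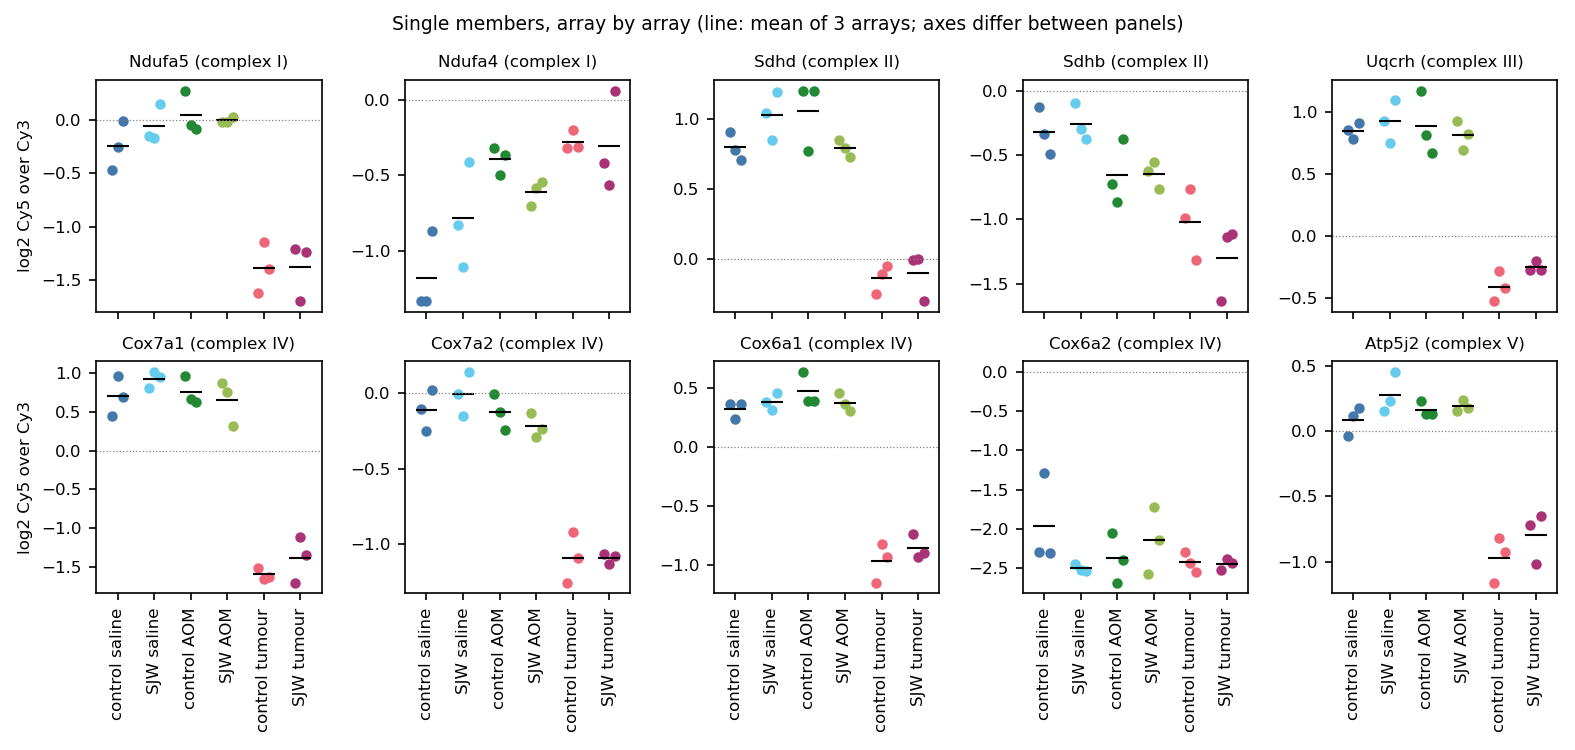
Log2 ratio of sample over pool of 10 members on each of the 18 arrays; points are arrays and lines are means of 3, and the vertical axes differ between panels. Cox7a1, Cox7a2, Cox6a1, Ndufa5, Sdhd, Uqcrh and Atp5j2 separate the 6 tumour arrays from the 12 others, whereas Cox6a2 does not and Ndufa4 is lowest in saline tissue of the control diet.

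Cox7a1, the heart and skeletal muscle form of subunit VIIa, had the largest decrease of all members. It was at 0.44, 0.95 and 0.69 in control saline, at 0.80, 1.01 and 0.94 in SJW saline, at 0.95, 0.66 and 0.63 in control AOM and at 0.87, 0.75 and 0.32 in SJW AOM tissue. It was at -1.51, -1.65 and -1.63 in control tumours and at -1.70, -1.10 and -1.35 in SJW tumours. The 6 tumour arrays lay below the pool and the 12 others above it. Cox7a1 fell by 2.34 ± 0.18 on the control diet (5.06-fold, limma adjusted p = 5.37e-07) and by 2.03 ± 0.18 on the SJW diet (4.08-fold, adjusted p = 2.52e-06). Smooth muscle genes also fell in tumours, 8 of 9 on the control diet (median -3.03) and 7 of 9 on the SJW diet (median -2.51), and their mean per array was -1.23 to 2.60 in non-tumour tissue and -1.45 to -0.73 in tumours. The non-tumour arrays with the least smooth muscle signal, control saline replicate 2 and SJW saline replicate 3, had smooth muscle means of -1.23 and -0.92, within the tumour range, and Cox7a1 at 0.95 and 0.94. Of 8 striated muscle genes 3 and 4 were lower in tumours (medians -0.36 and -0.65), among them on both diets Ckm, the muscle creatine kinase, well above background on 3 of 6 tumour and 11 of 12 non-tumour arrays. The mean of the 8 was -1.54 to -0.52 in non-tumour tissue and -2.51 to -1.49 in tumours. The part of smooth or striated muscle in the Cox7a1 result was not tested.

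**Figure D4:**
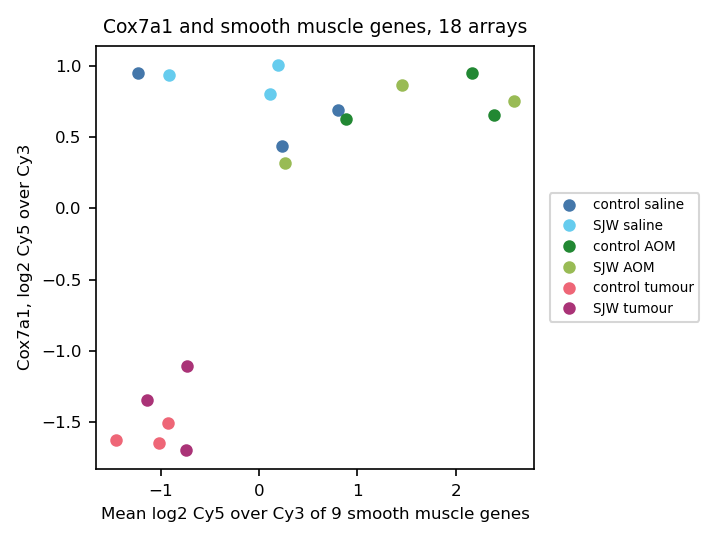
Cox7a1 against the mean of 9 smooth muscle genes, both as log2 ratio of sample over pool, with 1 point for each of the 18 arrays. Control saline replicate 2 and SJW saline replicate 3, at smooth muscle means of -1.23 and -0.92, share the tumours' range on the horizontal axis and have Cox7a1 at 0.95 and 0.94. The part of smooth muscle in the Cox7a1 values was not tested.

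Complex V was lower in 16 of 17 members on the control and 15 on the SJW diet, with medians of -0.70 and -0.69. Atp5j2, the f subunit of the membrane sector, was at 0.23, 0.13 and 0.13 in control AOM tissue and -1.16, -0.82 and -0.93 in control tumours, and at 0.15, 0.24 and 0.18 in SJW AOM tissue and -0.72, -1.02 and -0.65 in SJW tumours. Arrays did not overlap, and Atp5j2 fell by 1.13 ± 0.13 (2.19-fold, adjusted p = 1.58e-05) and by 0.99 ± 0.13 (adjusted p = 7.03e-05). The catalytic head fell as well: Atp5a1, the alpha subunit, by 0.83 ± 0.15, Atp5b, the beta subunit that forms the active sites, by 0.51 ± 0.12, and Atp5c1, the central shaft, by 0.64 ± 0.11 on the control diet. The Atp5b value is that of its brightest probe, and its other probes were at -0.07 and -0.08. Atp5o, which links head and stator, fell by 0.93 ± 0.14 and Atp5pb, the b subunit of the stator, by 0.81 ± 0.11. The genes of the c ring encode the same mature protein and had unequal values. Atp5g3 fell by 0.94 ± 0.14 on the control and 0.93 ± 0.14 on the SJW diet, Atp5g2 was at -0.40 ± 0.14 (adjusted p = 0.038) and -0.38 ± 0.14 (adjusted p = 0.0554), and Atp5g1 at -0.29 ± 0.17 and -0.45 ± 0.17 without passing. Whether their differences from each other exceed their errors was not tested. The Atp5g2 values are those of its brightest probe, and its other probe was at -0.04 on the control and -0.18 on the SJW diet.

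Tumours were also set against saline tissue, which shares the tumour arrays with the comparison above, so these values are no independent repeat. On the control diet 67 members were lower and 1 higher, where 19.6% of all genes were lower and 13.2% higher, and the members' median was -0.67. On the SJW diet 75 were lower and 0 higher, where 22.5% and 13.7% of all genes were, and the median was -0.81. Tumour arrays lay below all saline arrays for 71 members on the control diet (24.3% of all genes) and 76 on the SJW diet (30.3%). All 4 genes of complex II passed on both diets here, with Sdhb at -0.70 ± 0.18 and -1.04 ± 0.18 and Sdha at -0.71 ± 0.17 and -0.83 ± 0.17. Median centring left 3 lower and 2 higher members on the control diet, with a median of -0.04 against 0.14 for all genes, and 47 lower and 1 higher on the SJW diet. Of all 26073 genes, 2992 were then lower and 6598 higher on the control diet, and 2645 and 4146 on the SJW diet. On the control diet the share of lower genes was thus smaller among the members than among all genes. Without the arrays of brighter reference, 1 saline array was left on each diet, and 36 and 47 members were lower.

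The member that rose was Ndufa4, by 0.90 ± 0.19 on the control diet (limma adjusted p = 0.00174). It was at -1.33, -1.33 and -0.87 in control saline, at -0.32, -0.50 and -0.36 in control AOM tissue and at -0.32, -0.20 and -0.31 in control tumours. Control saline lay below both other groups of that diet, and these overlapped with each other. On the SJW diet it was at -0.83, -1.11 and -0.41 after saline, -0.71, -0.58 and -0.55 after AOM and -0.42, -0.57 and 0.064 in tumours. Those groups overlapped, with 0.48 ± 0.19 for tumours against saline tissue (adjusted p = 0.0555). Ndufa4 was named after its values were seen.

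After AOM, non-tumour tissue showed no called member on either diet by limma. On the control diet 54 members were positive and 28 negative, with a median of 0.065 against -0.007 for all genes, and 7 were under an unadjusted p of 0.05, where 13.6% of all genes were. Groups did not overlap for 10 members with AOM higher (9.45% of all genes) and 1 with AOM lower (8.33%). Called were 0.456% of all genes as higher and 0.127% as lower. Ndufa4 was nearest to a call, at 0.79 ± 0.19 (adjusted p = 0.0648), and it passed with the replicate number as a block (adjusted p = 0.0449), with median centring (0.0497) and without control saline replicate 3 (0.0442). Its adjusted p was 0.0442 to 0.40 over all alternatives. On the SJW diet 17 members were positive and 65 negative, with a median of -0.10, and 4 were under an unadjusted p of 0.05, where 19.3% of all genes were. There 1 member had AOM higher without overlap (13.1% of all genes) and 15 had AOM lower (15.5%), and 0.656% of all genes were called higher and 0.479% lower. All 4 genes of complex II were negative after AOM on the SJW diet, at -0.18 to -0.39, and 0 of them passed. Within slides the members' median was 0.017 to 0.16 on the control diet and -0.19 to 0.034 on the SJW diet. With median centring these medians were 0.49 and -0.34, and without the arrays of brighter reference the SJW median was 0.019.

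St. John's wort gave no called member in saline tissue, AOM tissue or tumours by limma, where 0% of all genes were called in each. The members' median difference of SJW from control was 0.12 after saline (2 members under an unadjusted p of 0.05, 10.7% of all genes), -0.07 after AOM (0 members, 3.18%) and 0.016 in tumours (3 members, 6% of all genes). Single members ranged from -0.55 to 0.39 after saline, from -0.27 to 0.23 after AOM and from -0.41 to 0.35 in tumours. Within slides the median was 0.075 to 0.17 after saline, -0.13 to 0.005 after AOM and -0.005 to 0.022 in tumours. The saline median was 0.64 with median centring and -0.05 without the arrays of brighter reference.

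The change with AOM differed between the diets for 0 members and the tumour change for 0 members, where 0% of all genes were called in either test. Differences in the AOM change, SJW minus control, had a median of -0.18, with 6 members under an unadjusted p of 0.05 (9.34% of all genes). Those in the tumour change had a median of 0.065 and a range of -0.36 to 0.31, with 0 members under an unadjusted p of 0.05 (4.14% of all genes). For Cox7a1 the tumour change differed by 0.31 ± 0.25 between the diets, for Sdhb by -0.28 ± 0.25 and for Sdhd by 0.30 ± 0.20 (adjusted p = 1.00 for each), and errors of this size do not show that the diets act alike.

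Other genes of mitochondrial energy metabolism were taken from 6 lists, written with earlier results of these data known, in tumours against AOM tissue. Of 17 measured genes of the tricarboxylic acid cycle, 12 were lower and 0 higher on the control diet (median -0.50) and 9 and 0 on the SJW diet (median -0.47). Citrate synthase (Cs), which starts the cycle, fell by 1.23 ± 0.15 and 1.07 ± 0.15. Of 15 genes of cytochrome c, coenzyme Q and electron transfer to it, 10 and 8 were lower and 0 higher, with medians of -0.60 and -0.54. Etfa, Etfb and Etfdh, which carry electrons from fatty acid oxidation to ubiquinone, fell by 0.85 ± 0.16, 0.80 ± 0.15 and 0.84 ± 0.17 on the control diet.

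Assembly factors of the complexes moved less than the subunits in the median: 15 of 42 were lower and 2 higher on the control diet (median -0.25) and 12 lower and 1 higher on the SJW diet (median -0.22). Ndufaf5, an assembly factor of complex I, fell by 0.80 ± 0.12, and Pet100 and the copper chaperone Cox17, both of complex IV, by 0.82 ± 0.13 and 0.79 ± 0.13. Cox10, which makes the haem A precursor of complex IV, rose by 0.49 ± 0.17 and Sdhaf2, which helps to insert flavin into Sdha, by 0.39 ± 0.14 on the control diet. Of 25 genes of protein import and mitochondrial mass 6 were lower and 2 higher on each diet, near the shares over all genes (19.3% lower and 12.7% higher on the control diet, 15.4% and 9.18% on the SJW diet), with medians of -0.07 and -0.13. Vdac2 and Vdac3, pores of the outer membrane, fell by 0.99 ± 0.14 and 0.91 ± 0.17, while Tomm20 and Timm22, parts of the import machinery, rose by 0.71 ± 0.16 and 0.50 ± 0.10.

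Of 19 measured regulators of mitochondrial biogenesis, 5 were lower and 2 higher on the control diet, where 19.3% and 12.7% of all genes were, and 5 and 0 on the SJW diet, where 15.4% and 9.18% of all genes were. Their medians were -0.29 and -0.24, and the counts are near the shares over all genes. The coactivators Ppargc1b and Ppargc1a fell by 1.87 ± 0.17 and 1.18 ± 0.18 on the control diet, and both fell on the SJW diet (-2.06 ± 0.17 and -1.10 ± 0.18). Esrra, the nuclear receptor they act with, fell by 1.36 ± 0.14 and 1.31 ± 0.14. Nrf1 rose by 0.80 ± 0.17 on the control diet (adjusted p = 0.00201) and was at 0.46 ± 0.17 on the SJW diet (adjusted p = 0.0572), and Esrrg rose by 0.61 ± 0.15 on the control diet. Of 20 glycolysis genes 12 were lower and 0 higher on the control diet (median -0.56) and 10 lower and 1 higher on the SJW diet (median -0.49). Slc16a1, a lactate and butyrate transporter, fell by 2.32 ± 0.17 and 2.19 ± 0.17, hexokinase 1 (Hk1) by 1.51 ± 0.13 and 1.30 ± 0.13, and Pfkp, a phosphofructokinase, by 1.16 ± 0.14 and 0.90 ± 0.14.

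**Figure D5:**
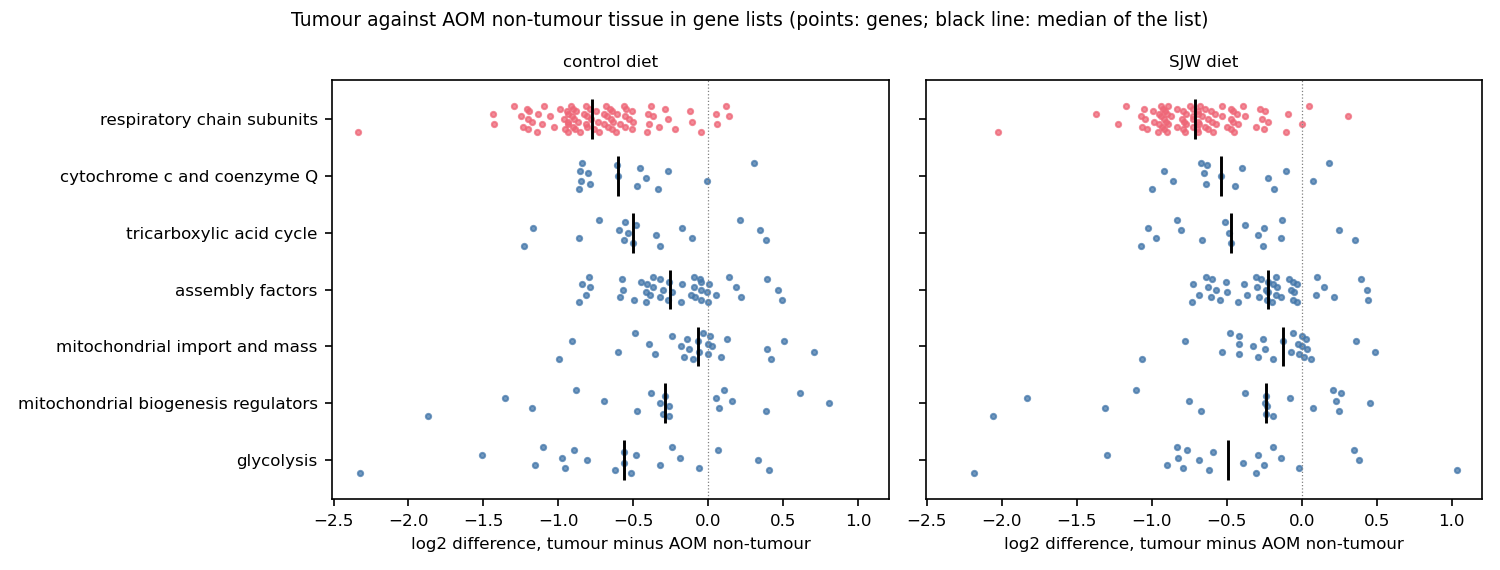
Log2 differences of tumours from AOM-treated non-tumour tissue for the 82 respiratory chain members and the genes of 6 other lists, on each diet; points are genes and black lines are medians. The members' medians are -0.77 and -0.71, and those of import and mass genes are -0.07 and -0.13.

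Cell type markers moved in the same comparisons. All 8 general epithelial genes were lower in control diet tumours (median -0.92) and 7 in SJW tumours (median -1.03). Their mean per array was 3.51 to 3.84 in non-tumour tissue and 2.46 to 3.04 in tumours. Krt18 had a similar range in both, 2.30 to 3.08 in non-tumour tissue and 2.33 to 3.01 in tumours. Krt20 also overlapped (3.72 to 4.79 and 2.36 to 3.93), and the other epithelial genes did not. Of 8 enterocyte and colonocyte genes 7 were lower and 1 higher on the control diet (median -3.40) and 7 lower on the SJW diet (median -3.15), with means of 2.78 to 4.60 in non-tumour tissue and -0.35 to 0.71 in tumours. All 6 goblet cell genes were lower on both diets, at medians of -3.25 and -3.05. Of 6 fibroblast genes 4 were higher and 1 lower in control tumours and 2 higher and 0 lower in SJW tumours. Of 5 macrophage genes 2 were higher on each diet. Among all genes 12.7% were higher on the control diet and 9.18% on the SJW diet. Of 6 T and B cell genes 3 were lower on each diet, where 19.3% and 15.4% of all genes were, with medians of -1.10 and -1.18. The T cell genes were not lower in tumours by their array values. Cd3e was at -0.75 to 0.26 in non-tumour tissue and -0.18 to 0.27 in tumours, and Cd3g at -1.38 to -0.28 and -0.79 to -0.40. All 8 general epithelial genes were well above background on all 18 arrays. The part of cell composition in the members' decrease was not tested.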

How the data were processed

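The 18 scanner files hold 2-colour spot intensity values with their background, per the file headers (Agilent Feature Extraction 10.10.1.1, protocol GE2_1010_Sep10, array annotation on mm9). The deposited log10 ratio of Cy5 over Cy3 was used as an alternative, as was the deposited series table, whose values matched the log2 form of that ratio. Median signals were corrected with normexp (offset 50) and normalized by loess within each array, with control spots at weight 0. Population-outlier spots were left out, spots of a probe were averaged and the brightest probe of a gene was used. Spots flagged as non-uniform were kept, and they made up 7.89% to 28.1% of all spots on an array. Among the members' spots they made up 11.0% to 13.4% on the 6 arrays of brighter reference. On the other arrays these were 25.6% to 67.1%, with 53.7% to 62.2% on the tumour arrays among them. A probe was kept where its Cy5 signal was well above background on all 3 arrays of a group. Symbols came from accessions matched to RefSeq (GRCm38.p6). limma 3.58.1 in R 4.3.3 fitted 26073 genes over all 18 arrays (12 residual degrees of freedom, 11 comparisons, Benjamini-Hochberg adjustment over all genes); the number of arrays limits the precision. The script was tested on simulated data, with 100 genes changed by 0.5 and 100 by 1 in either direction in control tumours. Against control AOM tissue, 8% and 65% of them were called in the right direction. A comparison without a called member can therefore miss changes of this size.

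The members and lists were chosen with earlier results of these data known. Array values were given for the called member with the largest change of each complex, for tissue isoforms with their common partners and for succinate dehydrogenase, and up to 3 called genes a direction were eligible from each other list. Same-numbered non-tumour arrays share a slide. The correlations of their deviations from group means ran from -0.35 to 0.41 and were over 0.1 in 8 of 18 pairs. In non-tumour pairs of different number they ran from -0.48 to 0.47 and were over 0.1 in 11 of 36 pairs. The values of 1 member and 1 gene of the other lists are not reported here by name; both are in the counts and medians.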

Additional observations from a re-analysis of the deposited data

How the results depend on the processing

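Leaving out 1 array at a time gave 63 to 68 called members for tumours against AOM tissue on the control diet and 60 to 66 on the SJW diet, 62 to 68 and 66 to 73 for tumours against saline tissue, and 0 to 1 for AOM against saline tissue on the control diet (Ndufa4, without control saline replicate 3). With each array centred on its median, these tumour counts were 25, 7, 5 and 48, where 5631, 3985, 9590 and 6791 of all genes were called. After AOM on the control diet 1 member was called in that setting. The medians were then -0.57 and -0.46 for tumours against AOM tissue, -0.037 for tumours against saline tissue on the control diet, 0.49 and -0.34 after AOM, 0.64 and -0.23 for SJW after saline and after AOM, and -0.86 for the difference between diets in the AOM change. With the values of the deposited table, where 52 of the members were tested, 39, 38, 42 and 43 were called. Requiring signal on all 18 arrays called 1 member after AOM on the control diet. Without the arrays of brighter reference, 37 and 48 members were called against saline tissue (SJW median -0.68), and the medians were 0.019 after AOM on the SJW diet, -0.052 for SJW after saline and -0.060 for the difference between diets in the AOM change; of these, the medians after AOM on the SJW diet and for SJW after saline changed sign. The cause of these shifts was not tested.

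On the non-tumour arrays the replicate number is the slide number, so a pairing by number cannot be told apart from the slide. Whether tumour and non-tumour arrays of the same number came from the same mice is not known here. With the replicate block, 1 member (Ndufa4) was called after AOM on the control diet, and the tumour counts were 69, 67, 68 and 75.

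Among the members with array values, signs turned for 3 isoforms without a call. Cox6a2 was at 0.35 and 0.030 (control, SJW) with median centring, 0.56 and 0.13 with the scanner ratio and with the deposited table, 0.0071 (SJW) with Cy5 alone, and -0.20 to 0.11 (control) with 1 array left out. Cox4i2 was at -0.19 and -0.37 with Cy5 alone, -0.0020 (SJW) with slide as a block, -0.20 (control) without the arrays of brighter reference, and -0.074 to 0.18 (control) and -0.18 to 0.092 (SJW) with 1 array left out. Cox6b2 was at -0.0055 (control) without the arrays of brighter reference and at -0.091 to 0.31 (SJW) with 1 array left out.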

Other observations

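Within complex I the 7 core subunits and the 29 others gave different medians in tumours against AOM tissue. The others are called accessory here, with Ndufa4 among them. The core median was -0.33 on the control diet, with 4 of 7 lower, and the accessory median -0.73, with 25 of 29 lower. On the SJW diet the medians were -0.47 (4 lower) and -0.67 (24 lower). This division was made after the values were seen and carries no test.

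Different probes of a gene did not always give the same size. For Ndufa7 the probe used was at -0.74 on the control diet and its other probe at -0.08. Every probe of the 16 members with several probes was negative in that comparison.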
